A study of Rattus norvegicus with 88 samples.

Results

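The miR-99, miR-100 and miR-125 families were followed through 5 mature miRNAs in rat liver: rno-miR-99a, rno-miR-99b, rno-miR-100, rno-miR-125a-5p and rno-miR-125b-5p, named below without the species prefix. They were chosen by name from the miRNA names of the array's design and joined across arrays by probe, because earlier results of these arrays had shown differences in their total gene signal. They are 5 of 314 miRNAs detected on at least 1 array, out of 677 on the array. Their own values, and counts of how many of them passed a threshold, are therefore a description without p-values and support nothing. p-values are printed only for the other miRNAs of the same gene clusters, a list that was itself drawn up with earlier results known. Whole liver was taken from untreated female and male Fischer 344 (F344) rats, an inbred strain. The animals of 2 weeks are called young below, those of 5, 6, 8, 15 and 21 weeks adult, and those of 52, 78 and 104 weeks old. Each of the 88 single-colour arrays held 100 ng of total RNA from 1 animal, with 5 animals per sex and age except the males of 5 and 104 weeks, which had 4 (45 females and 43 males in all). Because these were bulk samples, fewer cells of a type and less RNA per cell could not be told apart.

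miRNAs are short RNAs that guide Argonaute proteins to messenger RNAs, chiefly through the seed near their 5′ end, and lower the stability and translation of those messages. The miR-99 family (miR-99a, miR-99b and miR-100) is known for targeting the growth regulators mTOR and the IGF1 receptor, and the miR-125 family is the mammalian counterpart of the worm's lin-4, an RNA of developmental timing. In mammals the families lie together with a member of the let-7 family, an inhibitor of growth and cell cycle genes, in paralogous clusters on separate chromosomes, and miR-99a is known as an abundant miRNA of normal liver.

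RefSeq's table for the rat assembly GRCr8 held 4 of the 5 members. They are shown with let-7c, the neighbour of miR-99a, because the shared seeds define the families; capitals mark the seed, bases 2 to 8 from the 5′ end.
miR-99b: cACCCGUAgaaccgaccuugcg
miR-100: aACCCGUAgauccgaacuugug
miR-125a-5p: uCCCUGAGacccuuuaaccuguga
miR-125b-5p: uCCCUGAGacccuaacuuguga
let-7c: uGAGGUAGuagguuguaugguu
miR-99b and miR-100 shared the seed and 18 of 22 bases, and differed by C1A, A11U, C16A and C21U (the base of miR-99b first, positions from the 5′ end). miR-125a-5p and miR-125b-5p shared the seed and their first 13 bases, and were 24 and 22 bases long.

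The genes stood in 3 clusters of GRCr8, all on the plus strand, each in the order miR-99 family, let-7, miR-125 family. On chromosome 11, Mir99a (chr11:29687392-29687472) was followed by Mirlet7c1 (chr11:29688112-29688205) and by miR-125b-5p of Mir125b2 (chr11:29732588-29732609), over 45218 bases. On chromosome 8, Mir100 (chr8:50798295-50798374), Mirlet7a-2 (chr8:50805203-50805298) and Mir125b1 (chr8:50850036-50850122) spanned 51828 bases. On chromosome 1, Mir99b (chr1:67350064-67350133), Mirlet7e (chr1:67350229-67350321) and Mir125a (chr1:67350675-67350759) spanned only 696 bases. The array could not tell the miR-125b-5p of Mir125b1 from that of Mir125b2, so that member was set with both the chromosome 8 and the chromosome 11 cluster.

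Values are normalized intensities: the total gene signal of a miRNA over all its spots divided by the 75th percentile of the 314 expressed miRNAs on the same array, so that a value of 1 stands for that percentile. That percentile, the measure of an array's brightness, ran from 28.1 to 289 signal units with a median of 62.1, and an array detected 134 to 255 miRNAs. miR-122, the defining miRNA of hepatocytes, was detected on all 88 arrays. Arrays were scanned in 5 sessions, here called scans 1 to 5, holding 1, 13, 30, 28 and 16 arrays. Of the marker lists of other cell types, miRNAs of skeletal muscle summed to over 5 normalized intensity on 12 arrays, and the counts of members past the thresholds are given with and without them. miR-99a, miR-100, miR-125a-5p and miR-125b-5p were detected on all 88 arrays and miR-99b on 80. The share of the variance of log2 intensity that lay between the 18 groups of sex and age was 91.4% for miR-99a, 91.3% for miR-125b-5p, 61.6% for miR-100, 28.0% for miR-125a-5p and 19.9% for miR-99b.

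miR-99a and miR-125b-5p were higher in males than in females at every age from 15 weeks on, overlapped between the sexes from 5 to 8 weeks, and were higher in females at 2 weeks. At 52 weeks miR-99a had normalized intensities of 11.3, 12.1, 13.3, 13.3 and 15.8 in females and 25.6, 26.8, 26.9, 27.4 and 28.3 in males. At the same age miR-125b-5p measured 8.87, 11.3, 11.5, 12.0 and 13.6 in females and 21.8, 22.9, 24.9, 27.0 and 29.5 in males. For both miRNAs the lowest male lay far above the highest female. The log2 differences, male minus female, were 1.04 for miR-99a and 1.15 for miR-125b-5p.

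The gap opened between 8 and 15 weeks. At 8 weeks miR-99a ranged from 11.03 to 13.9 in females and from 11.1 to 13.6 in males, and at 15 weeks it measured 8.94, 10.9, 11.9, 12.6 and 13.3 in females and 16.9, 17.7, 17.9, 18.5 and 19.6 in males. miR-125b-5p at 8 weeks ranged from 10.04 to 11.4 in females and from 10.96 to 13.1 in males, and at 15 weeks it measured 8.76, 9.65, 10.5, 10.8 and 11.4 in females and 14.6, 14.7, 16.6, 17.6 and 18.4 in males. The sexes overlapped at 8 weeks and were apart at 15 weeks for both. From 15 to 104 weeks no male array of either miRNA fell to the level of a female array of the same age. The share of the 314 miRNAs with every male above every female was 3.5% at 15 weeks, 2.23% at 21, 3.5% at 52, 1.59% at 78 and 2.23% at 104 weeks.

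The female level hardly moved over this period while the male level rose and then eased. The group mean of miR-99a in females was 12.4 ± 1.10 at 8 weeks (SD, n = 5), 11.5 ± 1.71 at 15 weeks, 13.2 ± 1.70 at 52 weeks and 11.8 ± 3.33 at 104 weeks. In males it was 12.4 ± 1.02 at 8 weeks (n = 5), 18.1 ± 1.01 at 15 weeks, 27.0 ± 0.959 at 52 weeks and 21.5 ± 2.57 at 104 weeks (n = 4). miR-125b-5p in males went from 11.8 ± 0.910 at 8 weeks to 16.4 ± 1.71 at 15 weeks, and from 25.2 ± 3.11 at 52 weeks to 18.5 ± 2.82 at 104 weeks. At 104 weeks the females were widely spread for both miRNAs: miR-99a measured 8.44, 8.55, 11.7, 15.1 and 15.2, and miR-125b-5p 6.97, 7.52, 12.9, 13.3 and 14.1. The males of that age ranged from 18.03 to 23.6 for miR-99a and from 14.7 to 21.3 for miR-125b-5p, above all of these females.

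**Figure D1:**
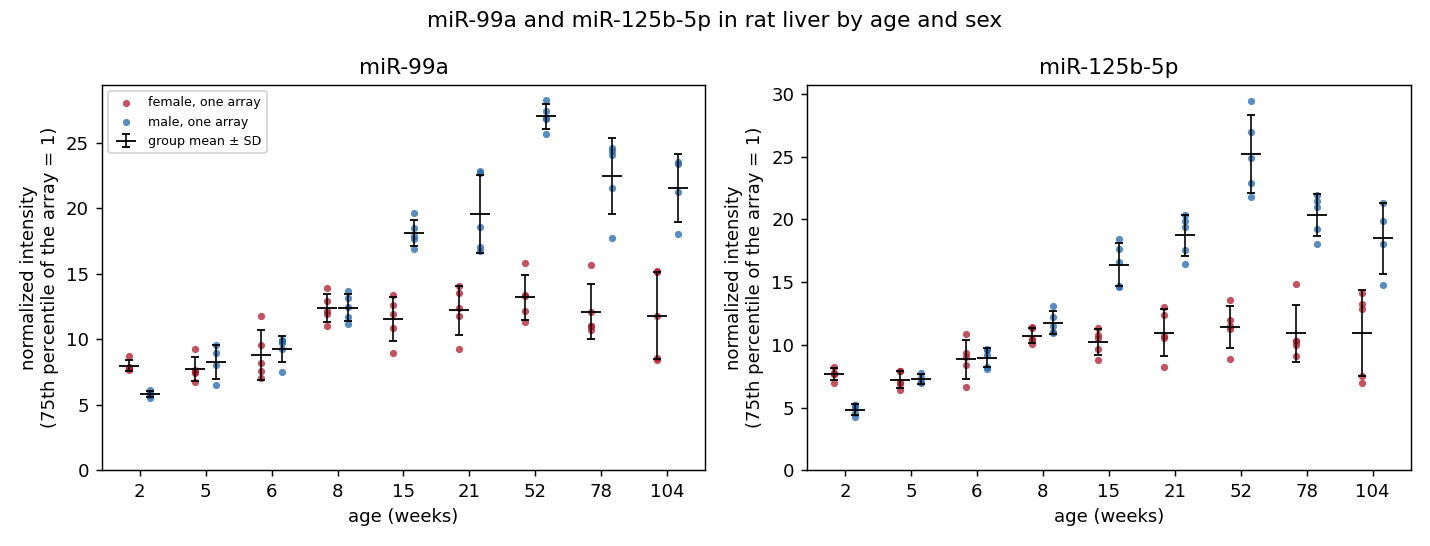
Normalized intensity of miR-99a and miR-125b-5p on each array by age, with females and males in separate colours, points for single animals and group means with the SD. Male and female points intermix from 5 to 8 weeks and are apart from 15 weeks on, with male means of 27.0 and 25.2 at 52 weeks.

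At 2 weeks the order was turned. miR-99a measured 7.68, 7.77, 7.84, 7.89 and 8.73 in females and 5.49, 5.74, 5.77, 5.88 and 6.09 in males, and miR-125b-5p 6.97, 7.68, 7.71, 7.75 and 8.24 in females and 4.24, 4.53, 4.99, 5.21 and 5.21 in males. Every female was above every male for both, as for 16.9% of the 314 miRNAs at that age. The log2 differences were -0.46 for miR-99a and -0.67 for miR-125b-5p on the scale used here, but with arrays scaled to the miRNAs detected on all arrays they were -0.07 with the arrays overlapping and -0.28 with the arrays still apart, a scaling that moved the median difference of all miRNAs at 2 weeks by 0.17. miR-122 moved the same way at this age, with 527 to 637 in females and 375 to 403 in males, and its part in the result was not tested.

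Against thresholds of an adjusted p under 0.05 in limma and a change of at least 1.5-fold, 14 of the 45 combinations of a member and an age passed, where 6.09% of all combinations of miRNA and age did. This share is printed for scale only, since the members were chosen on these values. miR-99a passed at 15, 21, 52, 78 and 104 weeks, with log2 differences of 0.66, 0.68, 1.04, 0.90 and 0.91, ages at which 3.18%, 2.55%, 2.55%, 1.27% and 4.14% of all miRNAs passed with males higher. miR-125b-5p passed at 2 weeks in the female direction, as did 7.64% of all miRNAs, and at the same 5 later ages with log2 differences of 0.68, 0.79, 1.15, 0.92 and 0.81. miR-100 passed at 21, 52 and 104 weeks, and miR-99b and miR-125a-5p at no age. Each miRNA's spread was fitted over all 18 groups, and fewer combinations passed when each age was fitted alone. The 104-week females had the widest log2 SD of the groups, at 0.42 for miR-99a, 0.49 for miR-125b-5p and 0.60 for miR-100. The miR-99a difference at 15 weeks was 0.57, under the 1.5-fold threshold, without female 4, and the 15-week differences of miR-99a and miR-125b-5p were 0.47 and 0.49 and the 2-week difference of miR-125b-5p -0.28, all under it, with arrays scaled to the miRNAs detected on all arrays. Without the 12 arrays with skeletal muscle miRNAs, a choice made after seeing the data, 12 of the combinations passed.

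Both miRNAs were read by 2 probes of 10 spots each, and at 52 weeks every male was above every female on both. At that age the ratio of the male to the female mean was 2.09 and 2.02 for the probes of miR-99a, and 2.92 and 2.17 for those of miR-125b-5p. At 2 weeks the same ratios were 0.762 and 0.704 for miR-99a, with the arrays apart on both probes, and 0.642 and 0.630 for miR-125b-5p, with the arrays overlapping on the first, dimmer probe and apart on the second. The scanner software's own error on the total gene signal had a median of 7.30% for miR-99a and 9.50% for miR-125b-5p, beside median coefficients of variation between animals of a group of 12.4% and 9.66%.

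The male excess was present in each scan that held both sexes from 15 to 104 weeks. With each age centred on its own mean, the log2 difference of miR-99a was 0.66, 0.87, 0.89 and 0.84 in scans 2 to 5 and 0.84 over all arrays. For miR-125b-5p it was 0.64, 0.83, 0.88 and 0.89, and 0.87 over all. Scan 2 gave the lowest value for both and held only 2 of these females. At 52 weeks, where the gap was widest, the summed levels of the hepatocyte, biliary, stellate, endothelial, leukocyte and erythroid marker lists overlapped between the sexes. The skeletal muscle list, with no miRNA detected on all arrays, did not overlap, at 0.114 to 0.201 in females and 0 to 0.111 in males. miR-122 ranged from 830 to 1284 in females and from 888 to 1051 in males. The 5 miRNAs of stellate cells, fibroblasts and smooth muscle, of which miR-145 was detected on 31 arrays and the others on all 88, summed to 11.5 to 16.2 in females and 11.9 to 15.1 in males. The 4 leukocyte miRNAs, all detected on all arrays, summed to 9.55 to 10.68 in females and 8.60 to 14.7 in males, and the endothelial pair to 15.6 to 19.8 and 17.9 to 22.9. The 5 biliary miRNAs, of which miR-200a and miR-200b were detected on all arrays, summed to 0.590 to 1.58 and 0.928 to 1.80, and the erythroid pair, detected on all, to 6.45 to 8.13 and 7.41 to 11.3. At 15 weeks, the first age with the gap, the erythroid pair was higher in males without overlap, at 5.27 to 7.35 in females and 7.82 to 19.3 in males. The biliary list overlapped at that age, with 0.534 to 1.502 in females and 1.16 to 2.32 in males. The part of these lists in the sex difference was not tested.

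miR-100, the member of the miR-99 family on chromosome 8, was a dimmer signal with a smaller and less regular difference. At 52 weeks it measured 0.554, 0.586, 0.617, 0.723 and 0.826 in females and 1.07, 1.11, 1.11, 1.17 and 1.52 in males, a log2 difference of 0.86, and this was the only age at which the sexes were apart on the scale used here (with arrays scaled to the miRNAs detected on all arrays they were also apart at 21 weeks). At 21 weeks it measured 0.465, 0.489, 0.616, 0.624 and 0.797 in females and 0.696, 0.797, 1.05, 1.16 and 1.30 in males, a log2 difference of 0.73 with the lowest male inside the female range. At 78 weeks, between ages at which it passed the thresholds, it ranged from 0.700 to 0.841 in females and from 0.677 to 1.05 in males, with a log2 difference of 0.17. At 104 weeks the difference was 0.76, with 0.340, 0.350, 0.441, 0.712 and 0.851 in females and 0.512, 0.891, 0.963 and 1.19 in males. The call at 104 weeks was lost when any 1 of 6 arrays was left out (females 1, 5 and 8, males 2, 4 and 5; log2 differences of 0.60 to 0.74), and that at 21 weeks with any 1 of 3 left out (females 2 and 3, male 1; 0.63 to 0.67). With normexp and quantile normalization, described below, the differences at 21, 52 and 104 weeks were 0.20, 0.20 and 0.18, all under 1.5-fold. With replicate number as a block the 52-week call was lost, at a difference of 0.68. Of the 2 probes of miR-100, the brighter gave a male to female ratio of 1.79 at 52 weeks and the dimmer 1.16, and the dimmer had at least 5 of its 10 spots above background on only 8 arrays.

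miR-125a-5p and miR-99b, from the compact cluster on chromosome 1, overlapped between the sexes at all 9 ages on the scale used here. miR-125a-5p ranged from 0.381 to 1.01 over all arrays, and its log2 difference, male minus female, from -0.21 at 8 weeks to 0.44 at 78 weeks, where females measured 0.395, 0.503, 0.577, 0.616 and 0.697 and males 0.589, 0.662, 0.666, 0.867 and 1. The highest females at that age thus lay above the lowest males. miR-99b, where detected, ranged from 0.0999 to 0.355. It was undetected on 8 arrays: 5 of the 13 of scan 2, 2 of the 30 of scan 3 and 1 of the 16 of scan 5, and the 75th percentile of these arrays had a median of 34.9 signal units beside 64.8 for the others. The part of array brightness in the missing values was not tested. The miR-99b difference at 15 weeks, -1.75 on the log2 scale, was fitted with the 2 males in which it was undetected at the floor of 0.0120. With arrays scaled to the miRNAs detected on all arrays it was -1.59 and every female lay above every male, and at the other 8 ages the sexes overlapped on that scale too.

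**Figure D2:**
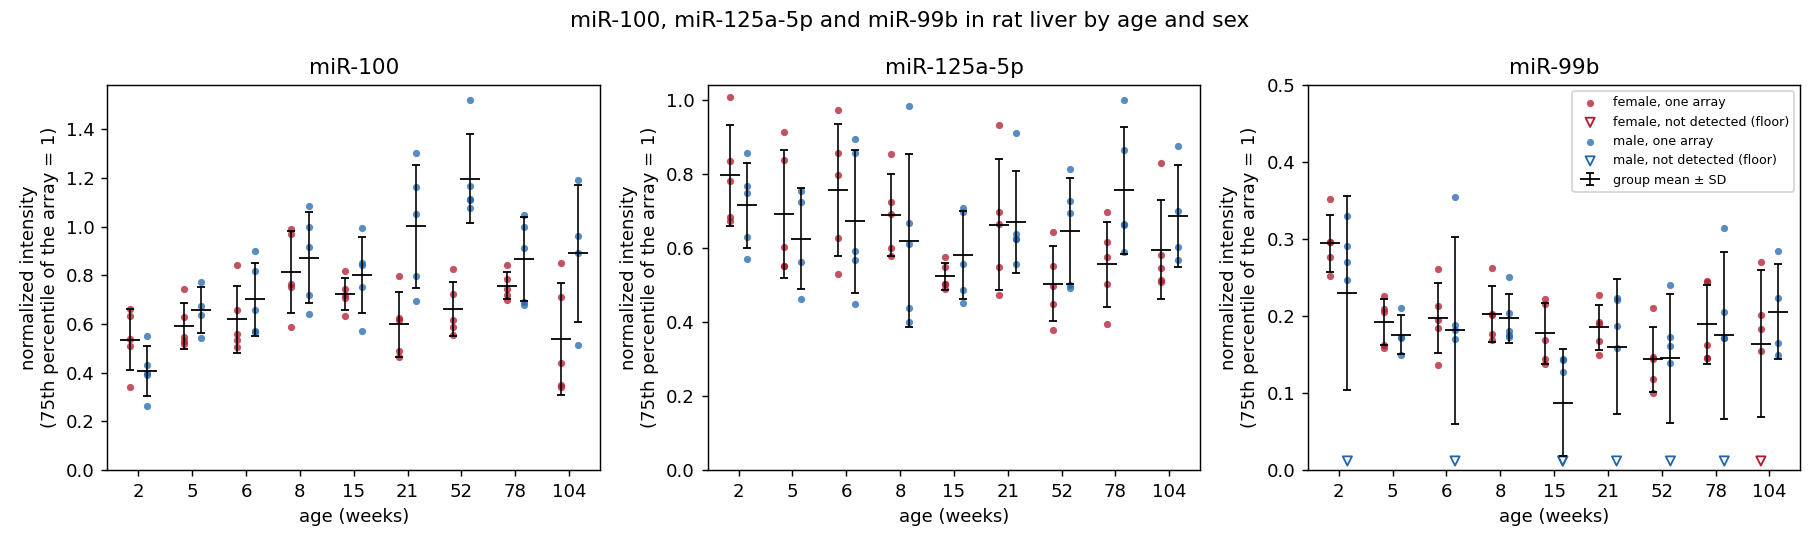
Normalized intensity of miR-100, miR-125a-5p and miR-99b on each array by age in females and males, with group means and the SD; triangles mark arrays on which miR-99b was undetected, set to the floor. miR-100 males of 52 weeks, at 1.07 to 1.52, lie above the females of that age, at 0.554 to 0.826; the points of the other 2 miRNAs overlap at every age.

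Across the life span the males' values of miR-99a and miR-125b-5p spread over a wider range of means than the females', by an amount that depended on the scaling. In males, miR-99a had its lowest mean at 2 weeks and its highest at 52 weeks, 4.66-fold apart (from mean log2 values), and miR-125b-5p was 5.20-fold and miR-100 2.99-fold apart between the same ages. Other miRNAs were on average also lower at 2 weeks on this scale: averaged over the 103 miRNAs that every array detected, log2 intensity was 0.91 in young and 1.90 in old males (1.27 and 1.91 in females), and miR-122 went from 375 to 403 in 2-week males to 888 to 1051 in 52-week males. With arrays scaled to those common miRNAs, 52-week males were above 2-week males by 2.09-fold for miR-99a and 2.33-fold for miR-125b-5p without overlap, and by 1.34-fold for miR-100 with overlap. On that scale the lowest male mean was no longer at 2 weeks. It was at 5 weeks for miR-99a and miR-125b-5p, 2.70-fold and 2.82-fold below 52 weeks, and at 15 weeks for miR-100, 1.67-fold below. In females the folds between the lowest and highest mean, on the first scale, were 1.71 from 5 to 52 weeks for miR-99a, 1.58 for miR-125b-5p and 1.59 for miR-100, the last with its lowest mean at 104 weeks and its highest at 8. Scaled to the common miRNAs, the female means of all 3 were highest at 2 weeks, with folds of 1.36, 1.37 and 1.66. On the first scale, with the male ages put in order of their means, neighbours in the order did not overlap at 4 of 8 steps for miR-99a: from 2 to 5, 6 to 8 and 8 to 15 weeks, and from 78 to 52 weeks. For miR-125b-5p the 4 steps were from 2 to 5, 5 to 6, 6 to 8 and 8 to 15 weeks. In females, and for miR-100, miR-125a-5p and miR-99b in both sexes, every pair of neighbouring ages overlapped on this scale. Over all miRNAs and steps, 4.62% in males and 3.58% in females did not overlap. Scaled to the common miRNAs the order of the ages was another, and neighbours did not overlap at 1 step each for miR-99a in both sexes, miR-125b-5p in males, miR-99b in females and miR-125a-5p in males, and at none otherwise, beside 3.3% of all steps in males and 3.18% in females. miR-125a-5p ran the other way in females, with 0.674 to 1.01 at 2 weeks and 0.381 to 0.645 at 52 weeks, its highest and lowest means, 1.59-fold apart, and 2.96-fold apart when scaled to the common miRNAs, where it was also 3.08-fold apart in males between 15 and 2 weeks.

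By the thresholds for age (an adjusted p under 0.05 in both the F test over 9 ages and a pairwise contrast of at least 1.5-fold), 4 of the 5 members passed in females, where 57.3% of the 314 miRNAs did, and 3 of 5 in males, where 54.1% did. Of the 36 pairs of ages, miR-99a differed in 22 in males and 9 in females, miR-125b-5p in 24 and 2, and miR-100 in 10 and 2. No share of such pairs over all 314 miRNAs is given, so these counts cannot be judged against one. miR-125a-5p passed in 2 pairs in females and miR-99b in none. In females the age call of miR-100 was lost when any 1 of 6 arrays was left out (8-week 2 and 3, 78-week 2, 104-week 1, 5 and 8) and that of miR-125a-5p without 2-week female 6. Without the arrays with skeletal muscle miRNAs, 2 of the members passed in females and 3 in males. Which members passed also depended on the scaling. With arrays scaled to the miRNAs detected on all arrays, miR-99a and miR-125b-5p did not pass in females, nor miR-100 in males. On that scale miR-99b passed in females and miR-125a-5p in males.

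From adult to old, miR-99a and miR-125b-5p rose in males past both thresholds, and no member did in females. Adult males ranged from 6.50 to 22.8 for miR-99a with a median of 12.8 (n = 24), and old males from 17.7 to 28.3 with a median of 24.2 (n = 14). Of the old males, 10 of 14 lay above the highest adult for miR-99a and 9 of 14 for miR-125b-5p. The log2 differences, old minus adult, were 0.87 for miR-99a and 0.81 for miR-125b-5p in males, and 0.24 and 0.20 in females, where 4 of 15 old rats lay above the highest adult for each. Of all 314 miRNAs, 3.82% passed as higher in old males and 1.59% as higher in old females. The male change exceeded the female by 0.63 for miR-99a and 0.61 for miR-125b-5p, past the thresholds in limma's interaction term like 1.27% of all miRNAs, and neither passed when any 1 of 25 arrays was left out. Without the arrays with skeletal muscle miRNAs, 2 members passed from adult to old in males and 0 in the interaction. The adult class joined animals of 5 to 21 weeks, over which the male level was still climbing: against the adults of 15 and 21 weeks alone, a choice made after seeing the data, the male differences were 0.33 and 0.28, and the female 0.05 and 0.05. Within scans 2 to 5 the male difference, over all adult ages, was 0.58, 0.81, 0.88 and 1.13 for miR-99a and 0.55, 0.70, 0.81 and 1.09 for miR-125b-5p. The summed leukocyte miRNAs ranged from 6.85 to 12.9 in adult and 8.60 to 22.7 in old males, and from 5.63 to 13.5 and 9.55 to 30.0 in females. The summed biliary miRNAs had medians of 2.83 in adult and 1.85 in old males, with overlapping ranges. Their part in the result was not tested.

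**Figure D3:**
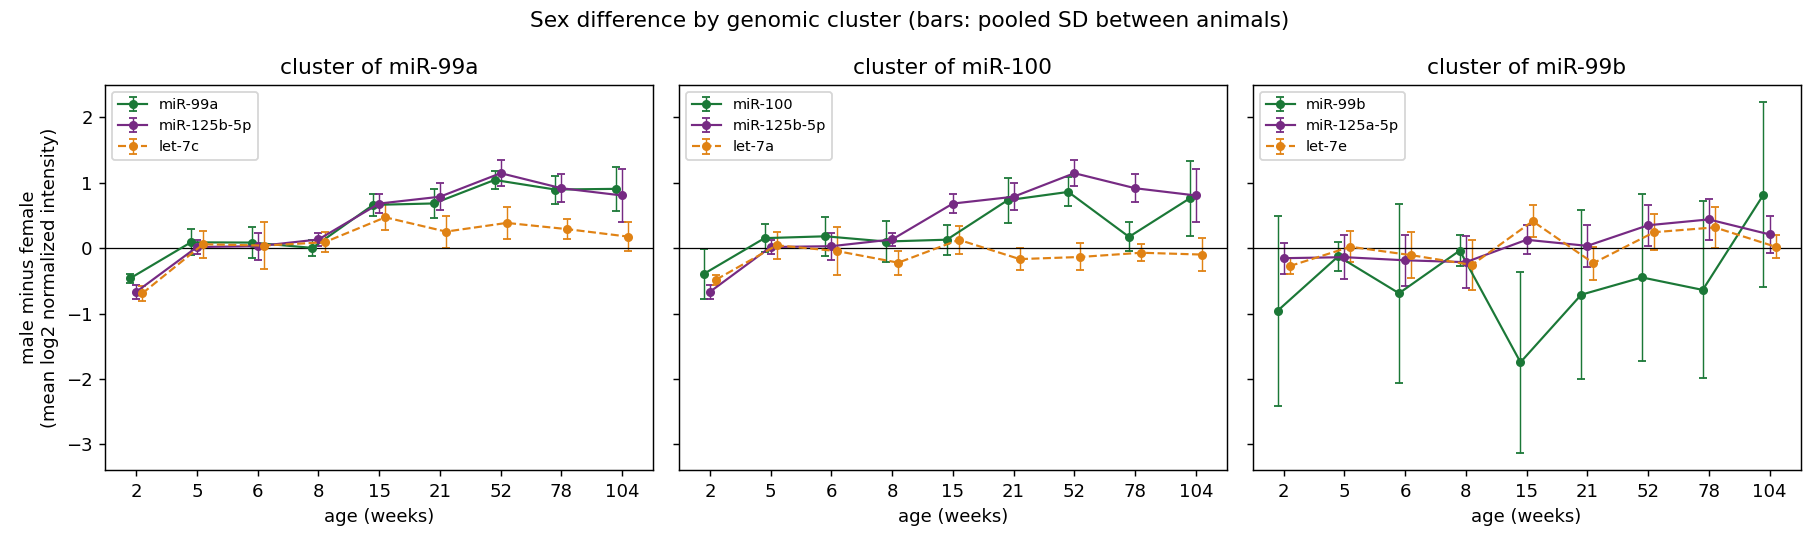
Log2 difference in normalized intensity, male minus female, at each age for the members and the let-7 miRNA of each of the 3 gene clusters, with the pooled SD between animals as bars. miR-99a and miR-125b-5p go from -0.46 and -0.67 at 2 weeks to 1.04 and 1.15 at 52 weeks, and let-7c of the same cluster from -0.69 to 0.39.

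The other miRNAs of the clusters were not what the members were chosen by, although their list was drawn up with earlier results of these data known. Of 16 partners and passenger strands listed, 12 were on the array and 8 were detected on at least 1 array. In limma, across 314 miRNAs, 2 of their 72 combinations of miRNA and age passed the thresholds for sex, beside 6.09% of all combinations. let-7c, the middle gene of the chromosome 11 cluster, measured 17.5, 19.1, 19.6, 19.97 and 20.7 in females and 10.4, 11.9, 12.1, 12.5 and 13.1 in males at 2 weeks. Females were above males without overlap, with a log2 difference of -0.69 ± 0.14 (SE, adjusted p = 4.76e-05, limma), which passed under 7 of 10 settings and was -0.30 with arrays scaled to the miRNAs detected on all arrays. let-7c is also made from a gene outside the cluster, and the array could not tell the copies apart.

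At 52 weeks let-7c measured 23.6, 31.4, 35.0, 35.4 and 43.1 in females and 37.6, 40.3, 45.2, 45.8 and 48.1 in males. The sexes overlapped in part, and the log2 difference was 0.39 ± 0.14 (SE, adjusted p = 0.0684, limma), where miR-99a and miR-125b-5p differed by 1.04 and 1.15. At 15 weeks it was 0.47 ± 0.14 (SE, adjusted p = 0.0208, limma), with males above females without overlap but under 1.5-fold. let-7a, in the cluster of miR-100, and made like let-7c also from a gene outside it, differed at 2 weeks by -0.48 ± 0.14 (SE, adjusted p = 0.00326, limma), also under 1.5-fold, and at 52 weeks by -0.14 (adjusted p = 0.768, limma). let-7e, between miR-99b and miR-125a-5p, passed at no age.

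miR-99a*, the passenger strand cut from the same hairpin as miR-99a, was a very dim signal. At 52 weeks it measured 0.127, 0.130, 0.130, 0.163 and 0.164 in females and 0.292, 0.293, 0.298, 0.299 and 0.317 in males, without overlap and with a log2 difference of 1.08 ± 0.40 (SE, adjusted p = 0.0749, limma), which passed the thresholds when 21-week female 2 or 6-week male 1, in other groups, was left out (adjusted p = 0.0351 and 0.0252, limma). At 21 weeks males measured 0.180 to 0.277 and the 4 females in which it was detected 0.0573 to 0.121, and the difference of 1.83 ± 0.40 (SE, adjusted p = 0.00104, limma) was fitted with female 2, in which it was undetected, at the floor of 0.0120. Males were above females without overlap at 15 and 104 weeks as well, and overlapped them at 78 weeks.

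By age, let-7c passed in females (adjusted p = 1.18e-05, limma F test) and in males (4.31e-16), let-7a in males (9.82e-07), miR-99a* in males (1.41e-06) and let-7a-1*, a passenger strand of let-7a, in females (0.0294), a call lost when any 1 of 6 arrays was left out (52-week females 5, 6 and 9, 78-week females 2, 3 and 5). let-7e passed in neither sex on this scale. With arrays scaled to the miRNAs detected on all arrays, let-7c and let-7a-1* in females and let-7a in males did not pass. On that scale let-7e passed in both sexes. From adult to old, let-7c differed by 0.40 in males (adjusted p = 0.00599, limma) and 0.31 in females (0.0219), both under 1.5-fold. miR-99a* differed in males by 0.81 (adjusted p = 0.0375, limma), a call lost when any 1 of 13 arrays was left out.

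Set against let-7c on the same array, miR-99a and miR-125b-5p changed unequally with it, on a ratio that needs no scaling between arrays; miR-125b-5p and let-7c each may come from a second gene outside the chromosome 11 cluster. The log2 ratio of miR-99a to let-7c was higher in males by 0.43 at 21 weeks, 0.66 at 52, 0.61 at 78 and 0.73 at 104 weeks, with no overlap of the arrays at any of these ages. The ratio of miR-125b-5p to let-7c was higher in males by 0.53, 0.76, 0.63 and 0.63 at the same ages, again without overlap. At 2 weeks the sexes overlapped in both ratios, with differences of 0.23 and 0.02, and at 15 weeks they overlapped in the ratio of miR-99a to let-7c, with a difference of 0.19. The ratio of miR-125b-5p to miR-99a overlapped between the sexes at all 9 ages, with differences from -0.21 to 0.13. The ratio of miR-99a to miR-100 was higher in males without overlap at 15 and 78 weeks, by 0.53 and 0.72. It overlapped at the other 7 ages, with differences of -0.05 at 21, 0.18 at 52 and 0.15 at 104 weeks among them.

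**Figure D4:**
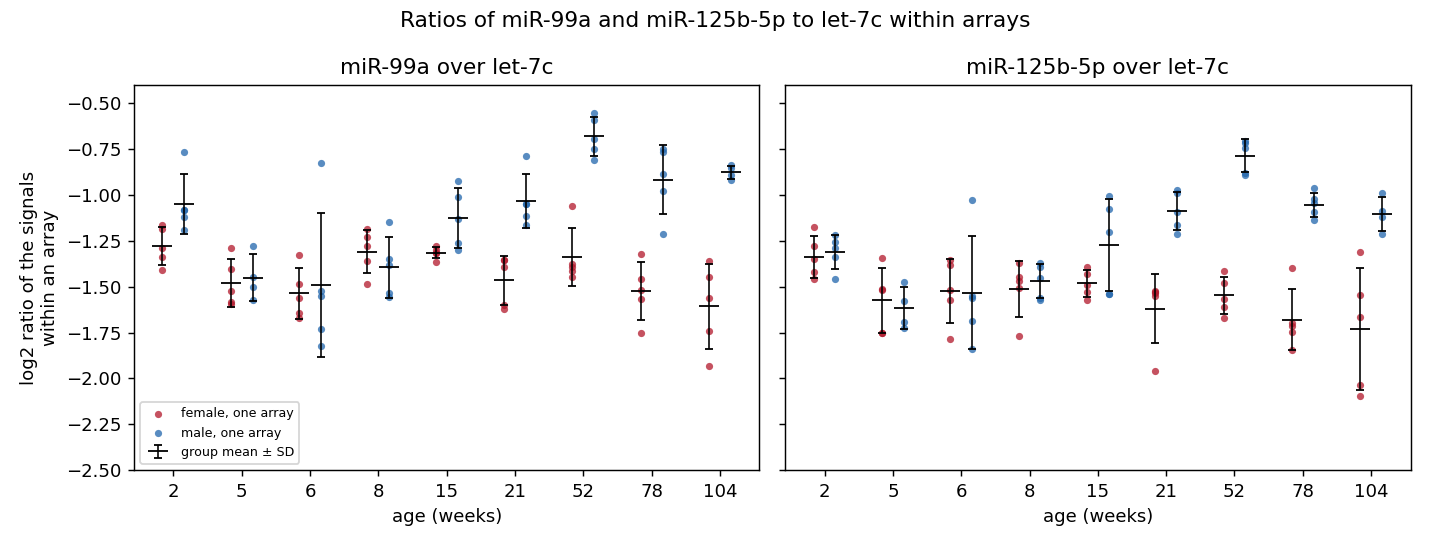
Log2 ratio, within each array, of miR-99a to let-7c and of miR-125b-5p to let-7c by age in females and males, with points for single animals and group means with the SD. Males lie above females without overlap at 21, 52, 78 and 104 weeks in both ratios, and the sexes overlap at 2 weeks.

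miR-99a and miR-125b-5p varied together across the 88 arrays, with a Pearson r of 0.97 and a Spearman rho of 0.97 over log2 intensities, and an r of 0.92 within females and 0.98 within males. Points share the array, its scaling and the groups' means. After each of the 18 group means was subtracted the r was 0.76, and it was at least 0.98 within each of scans 2 to 5. Each also followed let-7c, with an r of 0.88 for miR-99a and 0.89 for miR-125b-5p (0.69 for both after subtraction of group means), and let-7c was the miRNA closest to each among the non-members detected on all arrays. With let-7a, of the chromosome 8 cluster, the r was 0.66 and 0.65 (0.65 and 0.60 after subtraction). Within females miR-99a had an r of 0.93 with let-7a and 0.89 with let-7c. With arrays scaled to the miRNAs detected on all arrays, the r with let-7a was 0.11 for miR-99a and 0.09 for miR-125b-5p. miR-99a* and miR-99a had an r of 0.76 and a rho of 0.87, and an r of 0.34 and a rho of 0.42 after subtraction of group means. After subtraction of the group means, the closest non-members to miR-99a were miR-192 (0.81), miR-122 (0.80), an RNA of hepatocytes, and miR-107 (0.79), and those to miR-125b-5p were miR-192 (0.72), miR-122 (0.70) and miR-23b (0.69).

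In the other clusters the co-variation depended on the scaling. miR-100 followed miR-99a and miR-125b-5p alike, each with an r of 0.71 (0.41 and 0.33 after subtraction of group means), and let-7a, its neighbour on chromosome 8, with an r of 0.44. With arrays scaled to the miRNAs detected on all arrays these were 0.47 and 0.48, and -0.03 for let-7a. With let-7c, of the chromosome 11 cluster, miR-100 had an r of 0.59, and of 0.13 under that scaling. Its closest non-members were miR-31 (0.73), miR-31* (0.69) and miR-26b (0.67). miR-125a-5p followed its neighbour let-7e with an r of 0.49 (0.48 after subtraction, and 0.83 with the other scaling, under which miR-99a and miR-125b-5p followed let-7c with 0.77 and 0.80) and its seed mate miR-125b-5p with an r of 0.01 (0.30 after subtraction). miR-99b and miR-125a-5p, whose genes lie closest together, had an r of 0.01 over all arrays, where 8 values of miR-99b stood at the floor for undetected miRNAs, and of 0.54 (rho 0.55) over the 80 arrays that detected miR-99b, a selection made after seeing the data. With the members that share its seed, miR-99b had an r of -0.16 for miR-99a and 0.04 for miR-100, and of 0.21 and 0.28 after subtraction of group means.

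**Figure D5:**
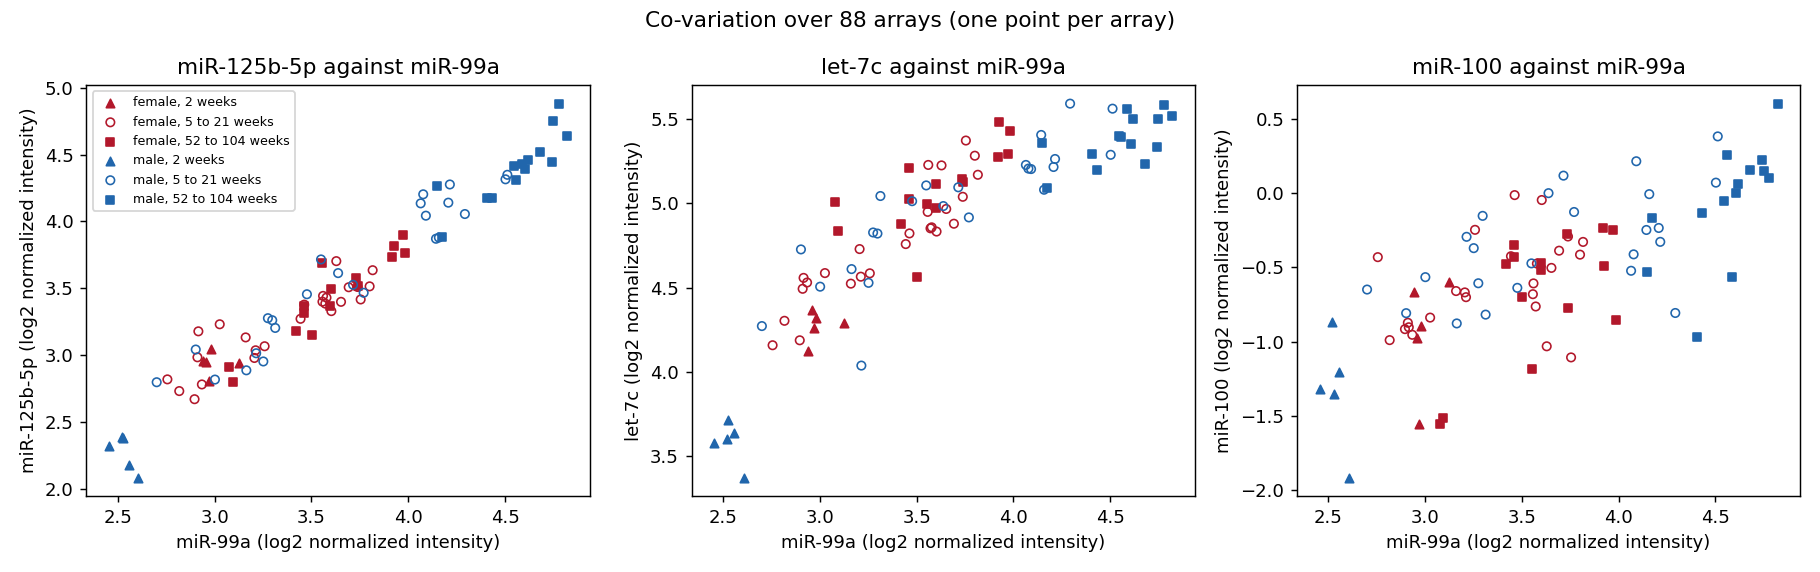
Log2 normalized intensity of miR-125b-5p, let-7c and miR-100 against that of miR-99a, 1 point for each of the 88 arrays, with colours for sex and symbols for age class. miR-125b-5p lies along a line with miR-99a (r of 0.97), let-7c flattens among the males with the most miR-99a (r of 0.88), and miR-100 scatters most (r of 0.71).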

How the data were processed

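Liver total RNA of 88 F344 rats was labelled with Cy3 and hybridised to 8x15k rat miRNA arrays, 1 animal per array, and samples were grouped by the sex and age of the labels (18 groups). The deposited scanner files hold spot and total gene signal intensity values that Agilent Feature Extraction 10.7.3.1 had background-subtracted per the file headers, with a total gene signal of 0.1 where a miRNA was not detected. The deposited value table holds the authors' ratio of each total gene signal to the 75th percentile of the expressed miRNAs on that array. Probe and gene flags in the deposited files have no unit.

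The total gene signals were taken from the scanner files. Undetected values were set to a raw minimum of 1.84, signals were scaled to the array's own 75th percentile among the 314 miRNAs seen on at least 1 array, a floor of 0.0120 was set and log2 was taken. All but 1 of the 27632 values matched the deposited table within 0.01%. Of these values 43.0% were undetected. No spot was saturated. The number of animals per group limits the precision. No 2 arrays held identical values.

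limma 3.58.1 in R 4.3.3 was fitted on all 314 miRNAs: male minus female at each age over all 18 groups, F tests and pairwise contrasts over the 9 ages within each sex, old minus adult, and its interaction with sex. Thresholds were a Benjamini-Hochberg adjusted p under 0.05 and 1.5-fold. The scripts were tested on simulated data. The members, partner and marker lists were chosen with earlier results of these data known. The text names the 5 members, the let-7 miRNAs and passenger strands of the same clusters, and for miR-99a, miR-100 and miR-125b-5p the 3 closest non-members by Pearson r, drawn from miRNAs detected on all arrays. Alternatives covered the scaling, the value for undetected miRNAs, a filter on dim miRNAs, normexp with quantile normalization (offset 50), the mean processed signal, the deposited table, scan, slide and replicate number as blocks, the methods' t-test, limma on each age alone, and each array left out. For normexp the median spot signal stood in for the mean spot signal. Scans were arrays whose scan times lay within 8 hours of each other. Mature sequences and coordinates came from RefSeq's table for GRCr8, which matched 4 of the 5 members.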

Additional observations from a re-analysis of the deposited data

Results flagged for a closer look

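Of 90 groups of 4 or 5 arrays of a member, 12 gave an array that stood apart from the rest of its group by Dixon's test, which chance alone flags in about 1 in 20 groups. miR-99a in 2-week female 1 measured 8.73 normalized intensity, where the other females of that age lay between 7.68 and 7.89, and in 6-week male 1 it measured 7.48 beside 9.28 to 9.94. miR-100 in 52-week male 10 was 1.52 beside 1.07 to 1.17. miR-125a-5p was 0.913 in 21-week male 6 beside 0.558 to 0.640, and 0.831 in 104-week female 1 beside 0.509 to 0.582. miR-125b-5p in 78-week female 2 was 14.9, where the other females of that age lay between 9.07 and 10.3. miR-99b was undetected, and so stood at the floor of 0.0120, in 2-week male 3, 6-week male 1, 21-week male 6, 52-week male 1, 78-week male 6 and 104-week female 5, while it was detected in the other animals of those groups.

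From adult to old the male log2 change exceeded the female by 0.63 for miR-99a and 0.61 for miR-125b-5p, past the thresholds in limma's interaction term, as for 1.27% of the 314 miRNAs. The members were chosen on these same signals, so this supports nothing. Neither passed when any 1 of 25 arrays was left out, with the replicate block or without the arrays with skeletal muscle miRNAs, and 1 passed with the scan block.

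The sexes were apart in opposite directions at 2 weeks and at later ages, which was not tested. With arrays scaled to the miRNAs detected on all arrays the 2-week difference of miR-99a was -0.07 with the arrays overlapping and that of miR-125b-5p -0.28, and the 15-week differences were 0.47 and 0.49. On the scale used here miR-99a was higher in females at 2 weeks and higher in males by 0.66 on the log2 scale at 15 weeks, 0.68 at 21, 1.04 at 52, 0.90 at 78 and 0.91 at 104 weeks. miR-125b-5p was higher in females at 2 weeks and higher in males by 0.68, 0.79, 1.15, 0.92 and 0.81 at the same later ages.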

How the results depend on the processing

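No difference past the thresholds, between the sexes or between old and adult, changed sign under the alternatives run. The sex count of 14 stayed at 10 to 14 except as follows. With the 75th percentile over all miRNAs, which on 36 of 88 arrays is the value put in for undetected miRNAs, 9 combinations of member and age passed for sex, 1 member for age in females, 0 for old against adult males and 0 for the interaction, and 6 combinations of the partners passed for sex. With normexp and quantile normalization these counts were 6, 0, 1, 1 and 0, and 0 partners passed for age. The 9 combinations under the 75th percentile over all miRNAs left out miR-99a and miR-125b-5p at 21, 78 and 104 weeks. They included miR-99a, miR-100, miR-125a-5p and miR-125b-5p at 8 weeks, with log2 differences of 1.40, 1.49, 1.18 and 1.52. None of these 8-week differences passed on the scale used here. The interaction count of 2 was 1 with the mean processed signal, with the scan block and with the slide block, 0 with the replicate block, 0 to 2 with single arrays left out and 0 without the 12 arrays with skeletal muscle miRNAs, which left 2 members passing for age in females. The partners' sex count of 2 was 5 with the raw minimum put in before scaling, 4 with the mean processed signal and with the slide block, and 2 to 5 with single arrays left out. The methods' t-test with Benjamini-Hochberg adjustment, and limma on each age alone, passed 10 combinations of member and age. With arrays scaled to the miRNAs detected on all arrays, 11 passed, and the interaction count was 3. The r of 0.97 between miR-99a and miR-125b-5p was 0.755 over deviations from the group means, 0.996, 0.987, 0.983 and 0.985 within scans 2 to 5, and 0.949 under that scaling. The causes were not tested.

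Replicate numbers did not pair the animals: deviations of same-numbered females and males of an age correlated by 0.0532 on average against -0.00759 for other numbers, with 17 of 33 pairs above 0.1. With the replicate block 13 combinations of member and age passed for sex. Signal over background limits miR-99b, undetected on 8 arrays, and the dimmer probes of miR-99b, miR-100 and miR-125a-5p, with at least 5 of 10 spots above background on 10, 8 and 20 arrays.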
